A study of Homo sapiens with 8 samples.

Results

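A set of 10 genes whose products damp signaling through the MAP kinases were followed in human breast cancer cells exposed to carboxymethyllysine (CML). The set was chosen by name, as 6 dual-specificity phosphatases (DUSP1, DUSP4, DUSP5, DUSP6, DUSP7 and DUSP10), 2 Sprouty genes (SPRY2 and SPRY4) and 2 Spred genes (SPRED1 and SPRED2). These are 10 of the 17649 genes with values. All 10 were detected in every library, and none was lost to a filter on low values.

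The cells were MDA-MB-231, an established line from an estrogen receptor-negative breast cancer. CML is an advanced glycation end product made when reactive sugar products attach to lysine. RNA-Seq covered 4 libraries of cells exposed to 1 μM CML for 48 hours and 4 control libraries of cells that received the PBS vehicle. Both groups grew in flasks in low-glucose medium, so that the comparison is one of CML against vehicle in a single cell line at 1 dose and 1 time. The replicates of each group carry the numbers 1 to 4, and the p-values below measure the spread between these libraries, which may be technical where they did not come from separate cultures.

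Growth factor receptors pass their signal through RAS, RAF and MEK to the kinase ERK, and stress signals reach the related kinases p38 and JNK. Dual-specificity phosphatases of the MAP kinase phosphatase family switch these kinases off by removing phosphate from both a threonine and a tyrosine of their activation loop. Sprouty and Spred proteins act further up and hold back the step from the receptor to RAS and RAF. Many of these genes are themselves induced by ERK activity, which makes them a negative feedback and a common readout of how active the pathway is.

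Proximal promoters are shown for DUSP1, the gene with the largest fold change of the 10, and for DUSP6, an ERK-specific phosphatase whose values overlapped between the groups, so that both control regions can be read beside the levels that follow. RefSeq promoter sequence was at hand for 8 of the 10 genes (not DUSP4 and DUSP5). Each sequence covers the 250 bases before the transcription start on the coding strand, 5′ to 3′. The DUSP1 window is chr5:172771196-172771445 on the minus strand, and the DUSP6 window is chr12:89352502-89352751 on the minus strand, both in GRCh38.p14. Capitals mark, in order, a cAMP response element (CRE, TGACGTCA), an E-box (CACGTG) and a TATA box (TATAAA), and DUSP6 holds none of the motifs searched.
DUSP1: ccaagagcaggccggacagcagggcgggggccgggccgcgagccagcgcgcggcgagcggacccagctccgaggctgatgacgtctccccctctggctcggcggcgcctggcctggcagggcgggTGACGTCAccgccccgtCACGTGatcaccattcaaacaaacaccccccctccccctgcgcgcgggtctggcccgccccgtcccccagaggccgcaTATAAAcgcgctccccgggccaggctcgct
DUSP6: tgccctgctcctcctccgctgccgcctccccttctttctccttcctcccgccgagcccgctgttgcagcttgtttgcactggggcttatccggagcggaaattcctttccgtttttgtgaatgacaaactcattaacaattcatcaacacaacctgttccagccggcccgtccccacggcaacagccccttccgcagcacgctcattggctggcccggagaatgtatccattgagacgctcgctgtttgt

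On both strands of these windows, 7 motifs were searched. The CRE of DUSP1 begins 125 bases before the start site, its E-box 108 bases before it, and its TATA box 30 bases before it, and the 3 matches do not overlap. Among 35116 promoter windows of the same length, 1.65% held the CRE, 6.34% the E-box and 10.7% the TATA box. None of the other 7 genes matched any of these 3 motifs. An AP-1 element (TGANTCA, in 6.57% of windows), an ETS motif (CCGGAAG, in 8.52%) and the CArG box (in 1.16%) were in none of the 8 windows, and an NF-κB site (in 9.96%) was in the DUSP7 window alone, 158 bases before the start. These are matches of letters in a window and say nothing of binding.

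The estimated depth was 16161802 to 18954733 reads per library, so that 1 read was worth 0.0535 to 0.0622 CPM (reads scaled to a common library size). At this depth the 10 genes had between 372 reads (DUSP1) and 10563 reads (DUSP4) in a library. Of the markers listed for the line, vimentin (VIM) lay at 4014 to 4243 CPM, AXL at 1122 to 1263 CPM and CD44 at 803 to 885 CPM, while the progesterone receptor gene PGR did not exceed 0.114 CPM and E-cadherin (CDH1) 0.954 CPM. Of the other genes listed as low in this line, ERBB2 lay at 44.1 to 54.4 CPM and EPCAM, an epithelial adhesion gene, at 12.7 to 16.3 CPM, and ESR1 was not analysed here. The leukocyte gene PTPRC and the endothelial gene VWF stayed at or below 0.650 and 0.747 CPM. PECAM1, also endothelial, lay at 2.36 to 3.84 CPM, the fibroblast genes PDGFRB and COL1A1 at 3.07 to 4.88 and 9.40 to 13.3 CPM, and CD68, a lysosomal protein not limited to macrophages, at 152 to 181 CPM. No marker gene was called as different between the groups. Control replicate 4 stood apart in its weight on the comparison: 690 genes were called without it, against 158 with all libraries and 20 to 105 without any other single library. Values without both libraries numbered 4 are given where they change the call of a gene named below.

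In length-corrected levels the 10 genes fell into 2 ranges. DUSP5 (118 ± 0.578 CPM per kilobase of transcript in control cells, SD, n = 4), DUSP6 (110 ± 3.43), DUSP4 (101 ± 1.80), SPRY2 (91.3 ± 1.88) and SPRY4 (49.3 ± 0.898) were the high group. In control cells they ranked between percentile 89.1 (SPRY4) and percentile 96.0 (DUSP5) of the 12977 genes that averaged 1 CPM or more and had a transcript length. The other 5 genes lay between 11.4 ± 0.417 (DUSP1) and 17.0 ± 0.833 (SPRED2) CPM per kilobase, at percentile 58.3 to 68.9. Over all 8 libraries the ranges of DUSP5, DUSP6, DUSP4, SPRY2 and SPRY4 did not overlap with that of the next gene in the order, whereas SPRED2, DUSP7, DUSP10 and SPRED1 each overlapped with the next.

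**Figure D1:**
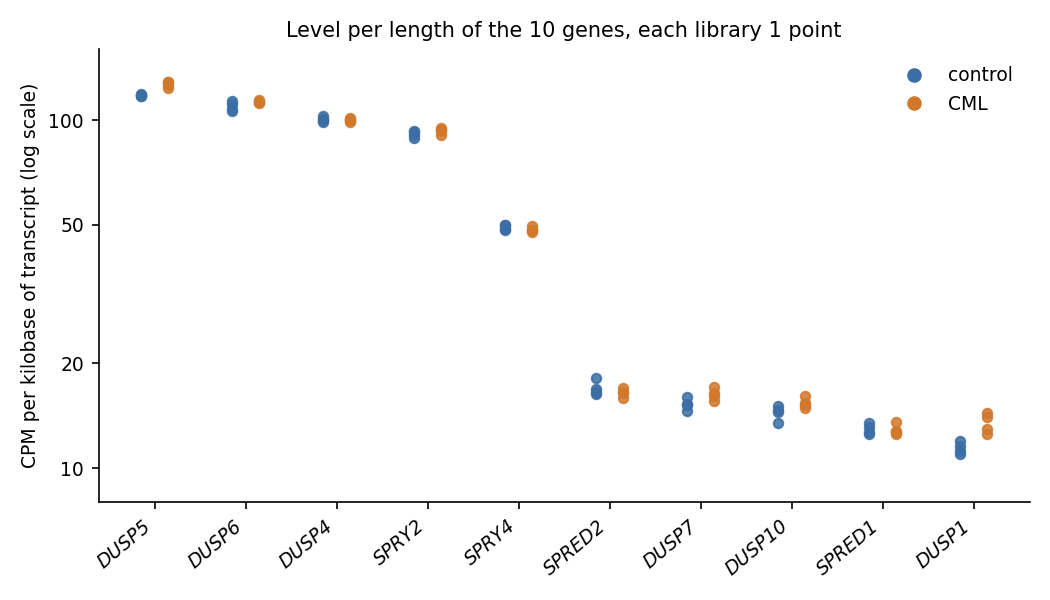
Level per length of the 10 genes (CPM per kilobase of transcript, log scale), with 1 point for each of the 4 control (blue) and 4 CML (orange) libraries. The 5 genes on the left lie between 47.7 and 129 CPM per kilobase and the 5 on the right between 11.02 and 18.2.

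The groups were compared with limma on log2(CPM + 1) over all 17649 genes, and a gene was called at a Benjamini-Hochberg adjusted p under 0.3, the FDR at which the study drew its heatmap. Of the 10 genes, 2 rose with CML (DUSP5 and DUSP1), none fell, and 8 were not called. In RNA from whole cultures, more cells that express a gene and more RNA per cell cannot be told apart. At an adjusted p under 0.05, limma called 0 of the 10 and 0 of all genes. Over all genes, 158 (0.895%) were called, of which 119 (0.674%) were higher and 39 (0.221%) lower with CML. The split was 46 higher and 27 lower with libraries centred on their median, and 90 and 54 under quantile normalization. At an unadjusted p under 0.05 the counts were 3 of the 10 genes (DUSP5, DUSP1 and DUSP7, all higher) and 1352 of all genes (7.66%). The genes were grouped with earlier results of these data in view, so that the share called among them is a description. Without the libraries numbered 4, DUSP5 alone was called among the 10, and 321 of all genes were.

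**Figure D2:**
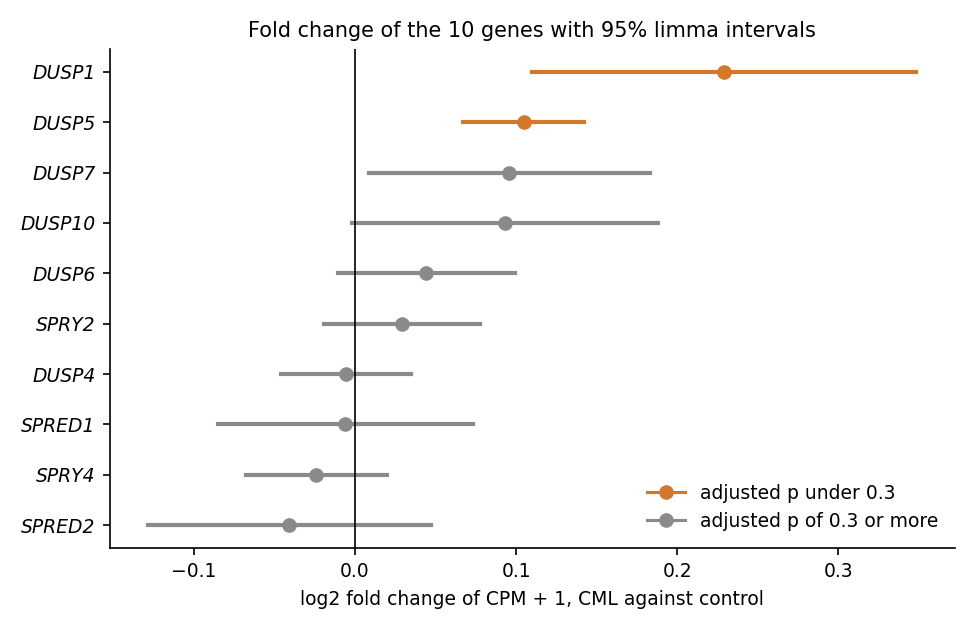
Fold change of each gene (log2 scale of CPM + 1, CML against control, 4 libraries per group) with its 95% interval from limma. DUSP1 and DUSP5 (orange, adjusted p under 0.3) have the highest values, 0.23 and 0.10, and the other 8 lie between -0.041 and 0.096.

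DUSP5 is a nuclear phosphatase that acts on ERK and is induced by it (ENSG00000138166.6, chromosome 10, 110497907 to 110511533). Its level was 294, 291, 293 and 292 CPM in control replicates 1 to 4, and 319, 307, 312 and 320 CPM in CML replicates 1 to 4. All 4 CML libraries lay above all 4 control libraries, with 12.5 CPM between the closest libraries of the 2 groups. The mean went from 292 ± 1.43 to 315 ± 6.31 CPM (SD, n = 4 each), an increase of 7.57%. On the log2 scale this was 0.10 (SE 0.016, adjusted p = 0.145 from limma), with a 95% interval of 4.77% to 10.4% on the scale of CPM + 1. Control libraries varied by 0.489% (coefficient of variation), less than the 1.39% that counting error alone gives at this gene's depth, and CML libraries by 2.01%. The call was lost when libraries were centred on their median (adjusted p = 0.476), under quantile normalization (0.482) and when genes under a mean of 1 CPM were left out (0.319). Without control replicate 2 (0.305), control replicate 3 (0.309) or CML replicate 3 (0.337) it was also lost, while the fold change stayed between 0.075 and 0.12 in all 19 alternatives.

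DUSP1 is an immediate-early phosphatase of the nucleus that is induced by stress and growth factors and acts mainly on p38 and JNK, and also on ERK (ENSG00000120129.6, chromosome 5, 172768096 to 172771195, minus strand). It had 22.2, 24.1, 22.5 and 23.3 CPM in control replicates 1 to 4. In CML replicates 1 to 4 it had 25.2, 29.0, 26.1 and 28.2 CPM. The groups did not overlap, and 1.18 CPM lay between the highest control library (replicate 2) and the lowest CML library (replicate 1). Its mean rose from 23.0 ± 0.839 to 27.2 ± 1.76 CPM (SD, n = 4 each), by 18.1%. The log2 fold change was 0.23 (SE 0.050, adjusted p = 0.297 from limma), with a 95% interval of 7.92% to 27.3%, so that the call stands at the edge of the threshold. Coefficients of variation were 3.65% in control and 6.48% in CML libraries, around the 4.86% expected from counting alone.

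The fold change of DUSP1 was between 0.20 and 0.26 in all 19 alternatives, and its call was kept in 7 of them. It was lost with a pseudocount of 0.1 (adjusted p = 0.301), with libraries centred on their median (0.402), under quantile normalization (0.3498), without moderated variances (0.438), and without the libraries numbered 4 (0.400). Of the 8 fits that left out 1 library, only the fit without control replicate 4 kept it, with an adjusted p of 0.268. The other 7 gave values from 0.303 (without CML replicate 1) to 0.523 (without CML replicate 2).

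Over all genes, 442 (2.5%) had 4 CML libraries that all lay above the 4 control libraries, and 225 (1.27%) had them all below. Among the 10 genes these counts were 2 and 0, with DUSP5 and DUSP1 as the 2. The other 8 overlapped, as the plot of levels by library shows.

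**Figure D3:**
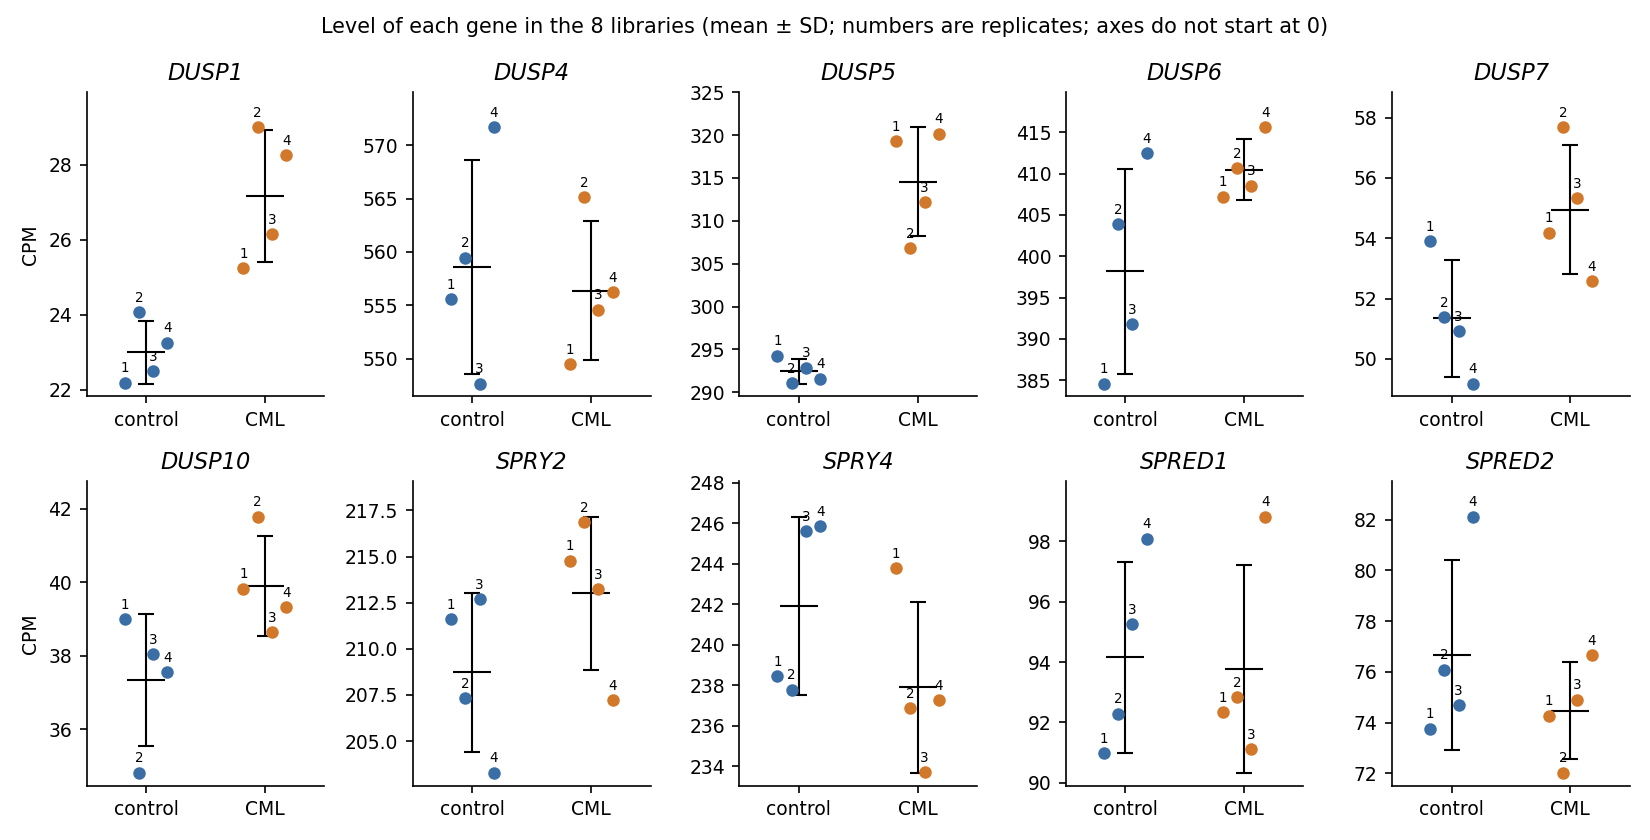
Level of each gene in CPM (each panel has its own axis, which does not start at 0), with 4 control (blue) and 4 CML (orange) libraries marked by replicate number; lines and bars are the mean ± SD. DUSP1 and DUSP5 are the panels without overlap between the groups, and in DUSP4, SPRED1, SPRED2 and SPRY4 the mean is lower with CML by less than 3%.

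DUSP4 is a nuclear phosphatase related to DUSP1 that acts on ERK, JNK and p38 (ENSG00000120875.9, chromosome 8, 29333064 to 29350684). It had the highest number of reads of the 10 genes. Control replicates 1 to 4 had 556, 559, 548 and 572 CPM, and CML replicates 1 to 4 had 549, 565, 555 and 556 CPM. Every CML library lay within the range of the control libraries. The means were 559 ± 10.002 and 556 ± 6.52 CPM (SD, n = 4 each), and the log2 fold change was -0.0056 (SE 0.017, adjusted p = 1.0 from limma). Its 95% interval ran from a decrease to an increase of the CPM + 1 value, -3.13% to 2.42%, so that a change of the size seen for DUSP5 or DUSP1 lies outside it.

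DUSP6, the cytoplasmic phosphatase that is specific for ERK and is widely read as an ERK output (ENSG00000139318.8, chromosome 12, 89347235 to 89352501, minus strand), overlaps the readthrough gene POC1B-DUSP6 in the annotation. Its control replicates 1 to 4 had 385, 404, 392 and 412 CPM, and its CML replicates 1 to 4 had 407, 411, 409 and 416 CPM. In 3 control libraries the level was below all CML libraries, and control replicate 4 was above CML replicates 1, 2 and 3. The means were 398 ± 12.4 and 410 ± 3.68 CPM (SD, n = 4 each), with a log2 fold change of 0.044 (SE 0.023, adjusted p = 0.750 from limma) and a 95% interval of -0.726% to 7.11%. Control libraries varied by 3.12% and CML libraries by 0.896%, against 1.21% from counting alone. In the fit without control replicate 4 the fold change of DUSP6 was 0.061 and its adjusted p was 0.353, the lowest of its alternatives.

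DUSP7, a second cytoplasmic phosphatase for ERK (ENSG00000164086.10, chromosome 3, 52048919 to 52056571, minus strand), overlaps the long noncoding RNA gene LOC124906238. Levels were 53.9, 51.4, 50.9 and 49.2 CPM in control replicates 1 to 4 and 54.2, 57.7, 55.3 and 52.6 CPM in CML replicates 1 to 4. The groups overlapped through a single pair of libraries, since control replicate 1 was above CML replicate 4. The means were 51.3 ± 1.95 and 54.9 ± 2.14 CPM (SD, n = 4 each). DUSP7 had a log2 fold change of 0.096 (SE 0.037, adjusted p = 0.595 from limma) and an interval of 0.608% to 13.5%, and it was called in none of the 19 alternatives.

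DUSP10 is a phosphatase that prefers p38 and JNK over ERK (ENSG00000143507.18, chromosome 1, 221701424 to 221742089, minus strand). Its levels were 39.0, 34.8, 38.04 and 37.6 CPM in control replicates 1 to 4 and 39.8, 41.8, 38.6 and 39.3 CPM in CML replicates 1 to 4. Here too 1 pair of libraries made the overlap, with control replicate 1 above CML replicate 3. The means were 37.4 ± 1.79 and 39.9 ± 1.35 CPM (SD, n = 4 each), and the log2 fold change was 0.093 (SE 0.040, adjusted p = 0.656 from limma, 95% interval -0.136% to 13.9%).

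SPRY2 and SPRY4 encode Sprouty proteins, which are phosphorylated after receptor activation and then inhibit the RAS-ERK branch. SPRY2 (ENSG00000136158.12, chromosome 13, 80335976 to 80341126, minus strand) had 212, 207, 213 and 203 CPM in control replicates 1 to 4 and 215, 217, 213 and 207 CPM in CML replicates 1 to 4. In both groups replicate 4 was the lowest library. The means were 209 ± 4.31 and 213 ± 4.15 CPM (SD, n = 4 each), with a log2 fold change of 0.029 (SE 0.020, adjusted p = 0.853 from limma) and an interval of -1.30% to 5.50%.

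SPRY4 (ENSG00000187678.9, chromosome 5, 142310430 to 142325021, minus strand) overlaps the long noncoding RNA gene SPRY4-IT1. It had 238, 238, 246 and 246 CPM in control replicates 1 to 4 and 244, 237, 234 and 237 CPM in CML replicates 1 to 4. In 3 CML libraries the level was below all control libraries, and CML replicate 1 lay among them. The means were 242 ± 4.40 and 238 ± 4.22 CPM (SD, n = 4 each), and the log2 fold change was -0.024 (SE 0.018, adjusted p = 0.879 from limma, interval -4.59% to 1.37%). Its sign was opposite to that of SPRY2 in each of the 19 alternatives, and neither gene was called in any of them.

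SPRED1 and SPRED2 encode membrane-bound relatives of Sprouty that bring neurofibromin (NF1), a GTPase-activating protein for RAS, to the membrane. SPRED1 (ENSG00000166068.13, chromosome 15, 38252836 to 38357249, plus strand) had 91.0, 92.3, 95.3 and 98.1 CPM in control replicates 1 to 4 and 92.3, 92.8, 91.1 and 98.8 CPM in CML replicates 1 to 4. Replicate 4 was the highest library of both groups. Means of 94.2 ± 3.17 and 93.8 ± 3.44 CPM (SD, n = 4 each) gave a log2 fold change of -0.0059 (SE 0.034, adjusted p = 1.0 from limma, interval -5.73% to 5.22%).

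SPRED2 (ENSG00000198369.10, chromosome 2, 65307175 to 65432599, minus strand) also had replicate 4 as the highest library of both groups. It had 73.8, 76.1, 74.7 and 82.1 CPM in control replicates 1 to 4 and 74.3, 72.0, 74.9 and 76.7 CPM in CML replicates 1 to 4. The groups overlapped, with CML replicate 2 alone below all control libraries. The means were 76.7 ± 3.76 and 74.5 ± 1.92 CPM (SD, n = 4 each), with a log2 fold change of -0.041 (SE 0.037, adjusted p = 0.897 from limma, interval -8.50% to 3.30%).

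Read by family, 5 of the 6 phosphatases had a fold change above 0, with a median of 0.095 on the log2 scale, and 2 were called. Of the 4 Sprouty and Spred genes, 1 had a fold change above 0, the median was -0.015, and none was called. Each of the 10 genes kept the sign of its fold change with centred and with quantile-normalized libraries. The median over all 10 genes was 0.037, against 0.014 over all genes. The difference between the families was not tested. Summed over the 6 phosphatases, the level was 1344 to 1386 CPM in control libraries and 1395 to 1412 CPM in CML libraries, 3.12% higher in the mean and without overlap. DUSP4, DUSP6 and DUSP5 make up most of this sum. DUSP5 and DUSP1, which it includes, had no overlap by themselves, and DUSP4 had a log2 fold change of -0.0056. The lack of overlap in the sum is thus not a separate result and does not show a rise of the whole family. Summed over the 4 Sprouty and Spred genes the level was 613 to 629 CPM in control and 613 to 625 CPM in CML libraries, and the ranges overlapped.

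Since the deposited scaling moves all genes of a library together, DUSP1 and DUSP5 were also expressed as a ratio to each of the other 9 genes within a library, a comparison chosen after their values were seen. DUSP1 had no overlap between the groups in 6 of 9 ratios. Divided by DUSP4 it was 0.0399 to 0.0430 in control and 0.0459 to 0.0513 in CML libraries, and divided by DUSP6 it was 0.0564 to 0.0596 and 0.0620 to 0.0706. The DUSP1 ratios to DUSP5, DUSP7 and DUSP10 overlapped. Fold changes were above 0 for these genes, and also for DUSP6 and SPRY2, whose ratios did not overlap. DUSP5 had no overlap in 4 of 9 ratios, those to DUSP4, SPRY4, SPRED1 and SPRED2, with 0.510 to 0.535 against 0.543 to 0.581 for DUSP4. A ratio shows unequal change of its 2 genes only. DUSP1 and DUSP5 are the genes of the set whose own values did not overlap, so ratios without overlap follow partly from that choice. The share of such ratios among other genes was not computed.

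Other members of the same families, listed by name, were then read from the same fit. Of 5 other MAP kinase phosphatase genes, with the inactive relative STYX among them, 4 averaged 0.5 CPM or more, and none was called. DUSP16, a phosphatase for JNK and p38, had 42.7 ± 0.637 CPM in control and 43.0 ± 2.30 CPM in CML libraries (log2 fold change 0.0061). DUSP2 (0.665 ± 0.226 and 0.841 ± 0.321 CPM), a nuclear phosphatase of immune cells, and DUSP8 (2.98 ± 0.676 and 2.79 ± 0.945 CPM) were low. Within a group they varied by 22.7% to 38.2% (coefficient of variation), and DUSP9 was at 0 in all 8 libraries. For SPRY1 the means were 26.4 ± 2.48 and 26.2 ± 1.17 CPM and for SPRED3 16.8 ± 1.74 and 15.6 ± 1.27 CPM, while SPRY3 stayed at a mean of 0.418 CPM. Neither SPRY1 nor SPRED3 was called (adjusted p = 1.0 and 0.899 from limma).

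The small atypical dual-specificity phosphatases lack the kinase-binding part of the MAP kinase phosphatases. Of 11 genes on this list, 10 had values and 9 a mean of at least 0.5 CPM, and limma called none. The 3 with the smallest p were DUSP14 (32.9 ± 1.48 and 35.9 ± 2.88 CPM, log2 fold change 0.12, adjusted p = 0.731), DUSP28 (2.73 ± 0.745 and 2.02 ± 0.423 CPM, -0.29, 0.794) and DUSP3 (84.5 ± 3.28 and 82.2 ± 2.74 CPM, -0.039, 0.897). Their median log2 fold change was 0.0063.

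Upstream of the phosphatases, the RAS-ERK cascade was listed with 23 genes, from the EGF receptor to the ERK-activated kinases. All 23 averaged 0.5 CPM or more and none was called, with 14 fold changes above 0 and 9 below, and a median of 0.024. At an unadjusted p under 0.05, 7.66% of all 17649 genes passed in either direction, and 841 were higher. In this list 3 passed, all higher. Among these were MAP2K1, which encodes MEK1 (70.7 ± 3.30 and 76.4 ± 3.29 CPM, log2 fold change 0.11, adjusted p = 0.613 from limma), and EGFR (923 ± 32.9 and 968 ± 10.2 CPM, 0.068, 0.623). In both of them the groups overlapped. Both were called in 2 of 19 alternatives, those with GC content and length removed from each library's values. The adjusted p from limma was then 0.262 for MAP2K1 and 0.0847 for EGFR. With a replicate block added to the model it was 0.236 and 0.0771.

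Along the p38 and JNK cascade, 1 of 16 genes was called, and it fell. Over all genes 0.895% were called, and 0.221% were called as lower. MAPK13 encodes p38 delta, a stress-activated kinase. It had 123, 125, 132 and 129 CPM in control replicates 1 to 4 and 118, 113, 117 and 116 CPM in CML replicates 1 to 4. All CML libraries lay below all control libraries. The mean was 127 ± 4.36 CPM in control and 116 ± 2.30 CPM in CML libraries, a log2 fold change of -0.13 (SE 0.027, adjusted p = 0.263 from limma). MAPK13 was called in 10 of 19 alternatives, was lost in 6 of the 8 fits without a single library (adjusted p from 0.382 to 0.502 in those 6), and kept its sign in all 19. The call was also lost with a replicate block in the model (0.340), without the libraries numbered 4 (0.386) and without moderated variances (0.398). The others named by the rule were MAP2K3 (84.2 ± 6.11 and 89.7 ± 4.18 CPM) and MAPKAPK2 (176 ± 1.77 and 179 ± 2.64 CPM), with log2 fold changes of 0.091 and 0.019 that were not called. The list had a median of 0.015.

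Genes outside the 10 that ERK signaling is known to induce were the last list. Of 12 such genes none was called, 9 had fold changes above 0, and the median of 0.071 on the log2 scale was the highest of the 6 lists. Of these 12, 4 had an unadjusted p under 0.05, all higher. Of all 17649 genes, 841 were higher at this p, and 7.66% passed it in either direction. The list was chosen with earlier results of these data known, so its share is a description. FOSL1, a component of AP-1, had 294, 280, 290 and 274 CPM in control replicates 1 to 4 and 300, 307, 300 and 296 CPM in CML replicates 1 to 4, without overlap (log2 fold change 0.079, SE 0.025, adjusted p = 0.488 from limma). CCND1, which encodes cyclin D1, went from 351 ± 9.49 to 367 ± 3.77 CPM (0.063, adjusted p = 0.510), and MYC from 269 ± 12.7 to 294 ± 12.7 CPM (0.13, adjusted p = 0.549). In 4 of 19 alternatives MYC was called, with an adjusted p of 0.259 without the libraries numbered 4, 0.263 with the replicate block, and 0.157 with GC content and length removed (0.0114 with these and the block). EGR1, an immediate-early gene of ERK like DUSP1, had a log2 fold change of -0.037 (adjusted p = 1.0) and is named after its value was seen.

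**Figure D4:**
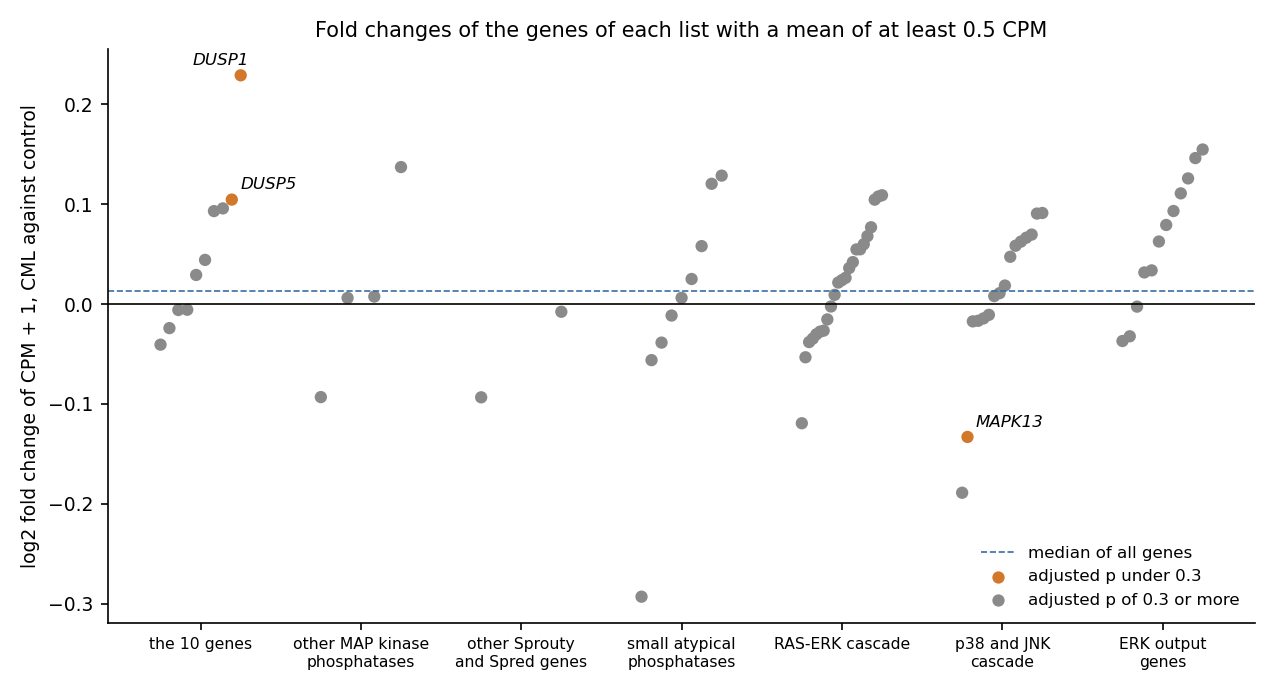
Log2 fold change (CPM + 1, CML against control) of each gene with a mean of at least 0.5 CPM, by list, with called genes in orange. The dashed line is the median, 0.014, of all genes that reach this mean. DUSP1 and DUSP5 are the called genes among the 10 and MAPK13, at -0.13, is the called gene of the other lists.

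The calls of DUSP1 and DUSP5 were followed through every setting. With GC content and length removed from each library's values, both were called, with adjusted p of 0.0912 (DUSP1) and 0.0873 (DUSP5) from limma. So were 874 of the 12977 genes tested in that setting, which leaves out genes under a mean of 1 CPM or without a length. With the replicate block added, the adjusted p was 0.0469 for DUSP1 and 0.0536 for DUSP5, and 923 of these genes were called. With centred or quantile-normalized libraries neither DUSP1 nor DUSP5 was called. Both genes had a fold change above 0 in all 19 alternatives. The other 8 genes were called in none of their 152 fits, where the lowest adjusted p was 0.306 (DUSP7, with GC content and length removed).

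**Figure D5:**
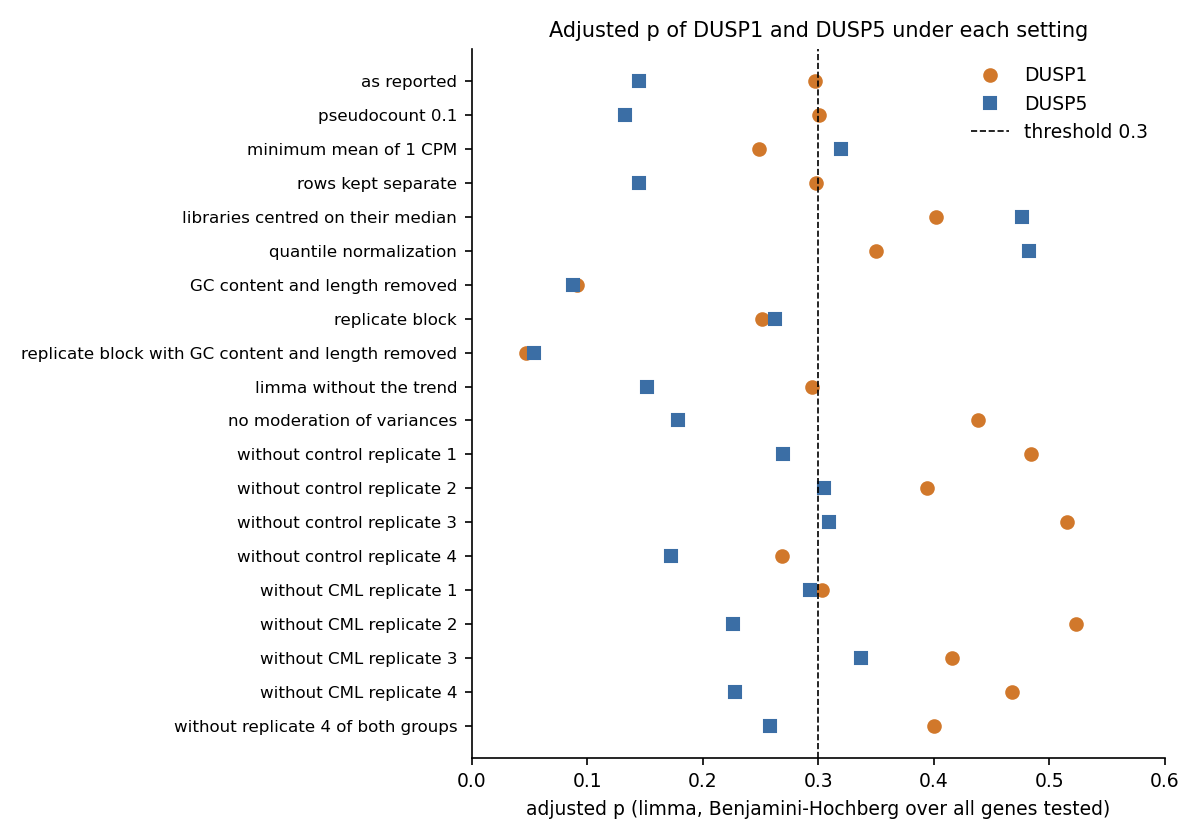
Adjusted p of DUSP1 (circles) and DUSP5 (squares) from limma under each setting, with the threshold of 0.3 as a dashed line. DUSP5 lies below the line in 13 of 19 alternatives and DUSP1 in 7 of 19.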

How the data were processed

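RNA-Seq of MDA-MB-231 cells, 4 control and 4 CML libraries, was read from the CPM table that the authors deposited, with 17681 rows of Ensembl identifiers and symbols. The submitters' processing notes name the genome build hg38 and edgeR, and for the sequencer the labels give NextSeq in one place and HiSeq in another. The aligner, counter and annotation of this experiment are not given in the sources used here.

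Rows of the 32 symbols with more than 1 row were averaged, leaving 17649 genes. The size of 1 read was recovered from the steps in each library's values. Between 86.2% and 87.2% of values above 0 were whole reads (within 0.05 reads), so the table holds scaled estimates and no count test was run. All 10 genes had whole reads in all 8 libraries.

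Groups were taken from the sample labels and compared with limma 3.58.1 (R 4.3.3) on log2(CPM + 1), with a variance trend and Benjamini-Hochberg adjustment, after testing on simulated data. A pseudocount of 1 understates changes of low genes. Lengths and GC content came from GENCODE release 44, positions and promoters from RefSeq (GRCh38.p14). Alternatives changed the pseudocount, filter, scaling, GC and length correction, replicate block, variance model and libraries. The lists were compiled by hand. From each of the 6 lists, called genes and the 3 with the smallest p at a mean of at least 0.5 CPM are named. A gene that the rule selects was left out, and family members below that mean are given as levels. The 10 genes, the lists and the tests were chosen with earlier results of these data known.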

Additional observations from a re-analysis of the deposited data

Results flagged for a closer look

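A library was looked for that stood far from the other 3 of its group, with Dixon's gap test at the 95% level, in the levels of the 10 genes and of the named genes of the lists. Of 54 groups of 4 libraries, 4 had such a library, where chance at 1 in 20 gives 2.7. None of the 4 was a group of the 10 genes. SPRY1 had 30.1 CPM in control replicate 4, above the 25.1 to 25.3 CPM of the other control libraries, and 24.5 CPM in CML replicate 1, below the other CML libraries. DUSP8 had 4.00 CPM in control replicate 1, the highest of its group. DUSP14 had 30.7 CPM in control replicate 2, the lowest of its group. The series has a single cell line, time and dose, and all columns of the table were used.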

How the results depend on the processing

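The number of the 10 genes called (2 as reported) was 1 with a pseudocount of 0.1, with genes under a mean of 1 CPM left out and without moderated variances, 0 with libraries centred on their median and 0 under quantile normalization, and 0 to 2 when 1 library was left out. Over all 17649 genes (158) the count was 73 with centred libraries and 97 without moderated variances. It was 20 (without CML replicate 2) to 690 (without control replicate 4) when 1 library was left out. With GC content and length removed it was 874 of the 12977 genes tested, and 923 of these with the replicate block. In the other lists (1 gene) it was 8 with GC content and length removed, with or without the replicate block, 0 without moderated variances, and 0 to 2 when 1 library was left out. Without the libraries numbered 4, an alternative chosen after seeing the data, the counts were 1, 321 and 2. The cause of these moves was not tested. The higher share of called genes was 75.3% as reported, 63.0% with centred libraries and 62.5% under quantile normalization.

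Log2 fold changes near 0 changed sign. When 1 library was left out, DUSP4 ranged from -0.015 to 0.0055, SPRED1 from -0.031 to 0.014, DUSP8 from -0.22 to 0.062, DUSP16 from -0.023 to 0.039 and SPRY1 from -0.031 to 0.055. Without both libraries numbered 4, DUSP4 was at 0.0056 and SPRY1 at 0.045. DUSP16 was at -0.013 with centred libraries, -0.010 under quantile normalization and -0.0011 with GC content and length removed, with or without the block. MAPKAPK2 was at -0.0010 with centred libraries and -0.0057 under quantile normalization. None of these was called.

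The replicate numbers come from the titles, and nothing says that they mark a shared day or batch. Deviations of same-numbered libraries correlated at 0.199, -0.030, -0.064 and 0.334 for numbers 1 to 4. Their mean was 0.11, against -0.036 for libraries of different numbers. Whether the numbers mark shared handling was not tested, and the main fit does not pair the libraries. With the replicate block, 189 of all genes and 2 of the 10 were called, with adjusted p of 0.252 for DUSP1 and 0.263 for DUSP5, while MAPK13 was no longer called (0.340) and MYC was called (0.263). DUSP2, at a mean of 0.753 CPM, rests on few reads at this depth. DUSP8 and DUSP28, at means of 2.89 and 2.38 CPM, varied by 20.9% to 33.9% within a group, which limits what their values show.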
